A study of Mus musculus with 8 samples.

Results

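The macrophage and myeloid genes examined here were 33 genes chosen by name, for their known expression in macrophages, microglia and related blood cells, and looked up in the RNA-seq tables of mouse sympathetic ganglia. Of these 33 genes, 30 were listed at E11.5, among 13506 genes, and 29 at E14.5, among 13413 genes. The 29 were listed at both stages, and the tables together held 14189 genes. *Itgam*, the integrin chain CD11b, *Ptprc*, the leukocyte phosphatase CD45, and *Cybb*, the catalytic subunit of the phagocyte NADPH oxidase, were listed in neither table. *Lgals3*, which encodes a lectin, was listed at E11.5 only. A gene without a row was below the limit of the tables, an FPKM (fragments per transcript, scaled to its length and to the size of the library) of 1 in both genotypes of that stage.

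Sympathetic ganglia were sequenced in 4 groups of 2 libraries, each library made from polyA RNA of ganglia pooled from 10 or more embryos. At E11.5, *Isl1* CKO embryos (*Wnt1-Cre;Isl1* f/f) were compared with control embryos (*Wnt1-Cre;Isl1* +/+). Both carried the *Rosa26-tdTomato* reporter of Cre activity, and tissue that did not fluoresce was cut away. At E14.5, *Isl1* hypomorph embryos (*Isl1* f-neo/f-neo) were compared with wildtype embryos, and the ganglia were dissected without the reporter. *Wnt1-Cre* is active in the neural crest lineage, which gives rise to sympathetic neurons and glia, and not in the lineages of blood cells. The hypomorphic allele is carried by every cell of the embryo. For each gene and genotype the tables hold a single FPKM that combines both libraries, with no read numbers and no values of single libraries. Neither depth nor the spread between libraries is known, no test was made, and every difference given here describes 2 pooled values without a replicate check. Ratios are log2 of (FPKM + 0.1) in the mutant over (FPKM + 0.1) in the reference, a scale that understates differences of genes with low values, and folds were taken from the same scale. A gene was counted as higher or lower from 1.5-fold on.

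Macrophages of the embryo arise first in the yolk sac and settle in developing tissues, where they take up dying cells and debris. Their development depends on the transcription factor PU.1, encoded by *Spi1*, and on signalling through the receptor for the growth factor CSF1. Tissue macrophages express complement C1q, Fc receptors that signal through ITAM adaptor proteins, and lysosomal enzymes, and the relative levels of such genes differ between microglia, other tissue macrophages, and monocytes.

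The macrophage genes were higher in *Isl1* CKO than in control ganglia at E11.5. Of the 30 listed genes, 28 were at least 1.5-fold higher and 0 were lower, and 21 were at least 2-fold higher. Over all genes of the table, 18.9% were at least 1.5-fold higher and 12.9% at least 1.5-fold lower, and 8.42% were at least 2-fold higher. The median log2 ratio was 1.2 over the macrophage genes and 0.05 over all genes. *Cd68* and *Coro1a* were the 2 listed genes that stayed below 1.5-fold. A gene under 1 FPKM in control ganglia could be listed only if its CKO value was 1 or more, and this applied to *Cd14*, *Fcgr1*, *Irf8*, *Lgals3*, *Ly86*, and *Mpo*. Among the 24 genes with 1 FPKM or more in both genotypes, 22 were higher and the median log2 ratio was 1.15, where 15.5% of all such genes were higher. In bulk tissue, more cells of a type cannot be told apart from more RNA per cell. Since FPKM is relative to the library, less RNA of other cells cannot be told apart from these either.

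In *Isl1* hypomorph ganglia at E14.5 the same genes were close to their wildtype levels, and most were slightly above them. Of the 29 listed genes, 28 had a log2 ratio above 0, as did 50.7% of all genes. Lists of other non-neuronal cells, given below, were also mostly above 0. Of the 29, 5 were at least 1.5-fold higher, and 0 were at least 1.5-fold lower. Of all genes at this stage, 2.89% were higher and 2.12% lower by that measure. The 5 genes were *Cd14*, *Cd53*, *Ly86*, *Mpo*, and *Pf4*. The median log2 ratio was 0.27 over the macrophage genes and 0.003 over all genes. *Cd14*, *Cd53*, *Fcgr1*, and *Mpo* were under 1 FPKM in wildtype ganglia, and among the 25 genes at 1 FPKM or more in both genotypes 2 were higher, *Ly86* and *Pf4*, where 1.87% of all such genes were. For 29 of 29 genes the log2 ratio was larger at E11.5 than at E14.5, a share that was not counted over all genes. The log2 ratios of all genes were also more widely spread at E11.5 (quartiles -0.31 and 0.45) than at E14.5 (-0.11 and 0.13). The mutants of the 2 stages carry different alleles, so stage and allele cannot be told apart, and the difference between the stages was not tested.

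*Isl1* itself was at 133 FPKM in control against 40.0 in CKO ganglia, and at 162 in wildtype and 83.1 in hypomorph ganglia, so both mutant columns had the lower value. The ganglia expressed *Th*, the first enzyme of noradrenaline synthesis, at 184 FPKM in control and 145 in CKO, and at 280 in wildtype and 207 in hypomorph embryos. Over all genes at E11.5, 59.4% of those past 1.5-fold were higher in CKO ganglia. This split was 35.2% when FPKM was rescaled to an equal sum per genotype without erythroid genes, which took 2.29% of the control sum and 11.2% of the CKO sum. That rescaling moved the median of all genes to -0.18. The macrophage genes were still above it, with a median log2 ratio of 0.97 and 25 of 30 genes higher, where 12.2% of all genes were higher.

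**Figure D1:**
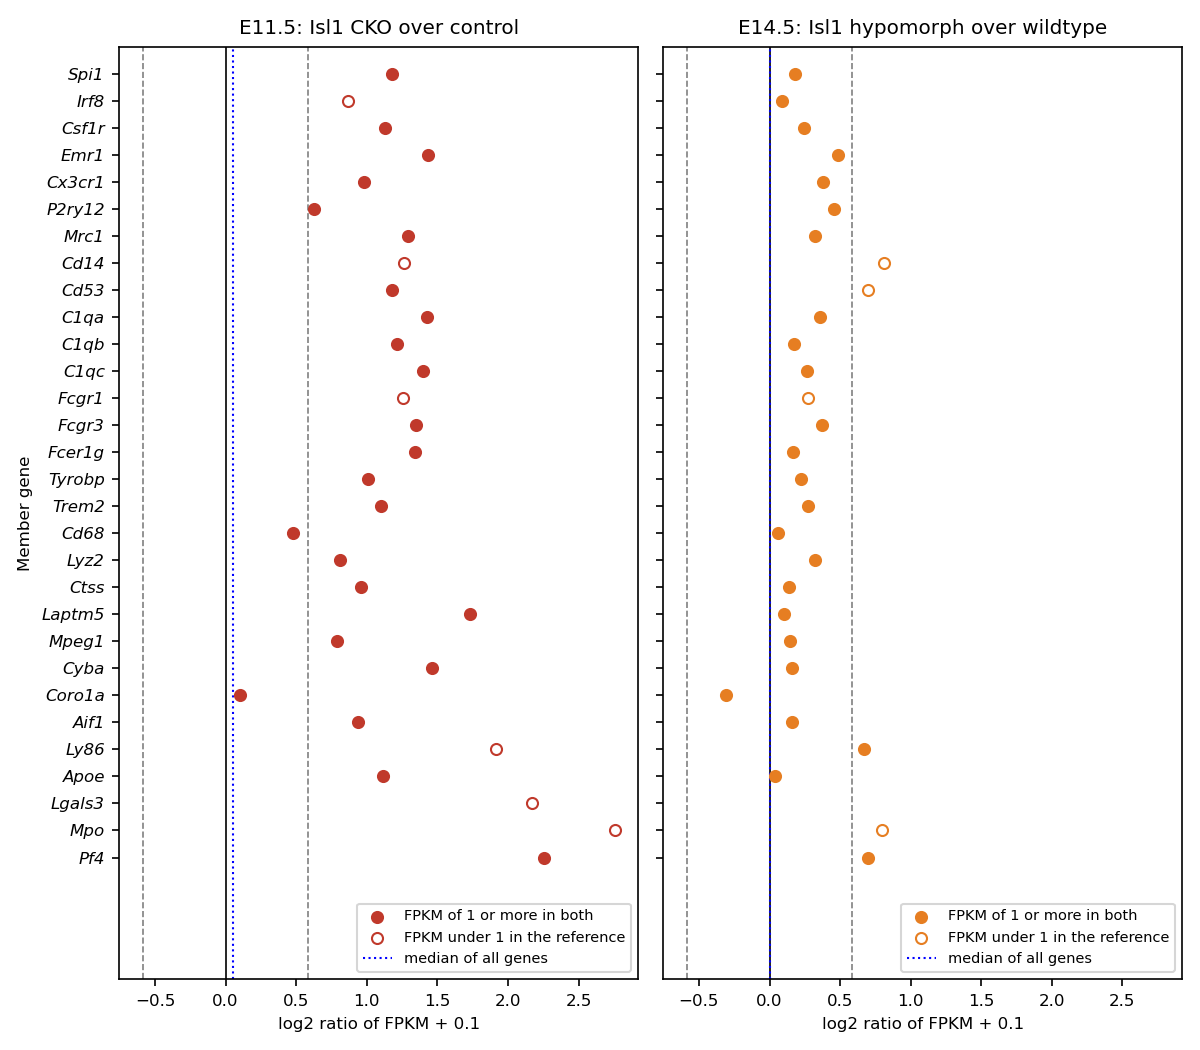
Log2 ratio of FPKM + 0.1 for each listed gene (vertical axis) in *Isl1* CKO over control ganglia at E11.5 (left) and in *Isl1* hypomorph over wildtype ganglia at E14.5 (right), from 1 pooled value per genotype and without error bars. Open points are genes under 1 FPKM in control or wildtype ganglia, dashed lines mark 1.5-fold, and the dotted line is the median of all genes. On the left 28 of 30 points lie beyond the right dashed line, and on the right 5 of 29 do.

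Among the transcription factors of the lineage, *Spi1* was at 1.66 FPKM in control against 3.89 in CKO ganglia, and at 2.50 in wildtype and 2.84 in hypomorph ganglia. *Irf8*, which is needed for microglia and monocyte development, was at 0.823 and 1.59 FPKM at E11.5 and at 1.36 and 1.46 at E14.5. Both genes were therefore low in every column and were higher in CKO than in control ganglia, with log2 ratios of 1.18 for *Spi1* and 0.87 for *Irf8*. At E14.5 the log2 ratios were 0.18 for *Spi1* and 0.09 for *Irf8*.

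Of the 9 surface genes, 7 were listed at both stages, and *Itgam* and *Ptprc* at neither. *Csf1r*, *Emr1*, and *Mrc1* were above 1 FPKM in control and wildtype ganglia. *Cd14* was under 1 FPKM in both, and *Cd53* in wildtype ganglia. *Csf1r*, the receptor for CSF1 and IL-34, was at 5.73 FPKM in control against 12.7 in CKO ganglia, and at 6.10 in wildtype and 7.25 in hypomorph ganglia. *Emr1*, which encodes the adhesion receptor F4/80, was at 2.19 and 6.09 FPKM at E11.5 and at 2.55 and 3.61 at E14.5. *Emr1* had the largest E11.5 log2 ratio of the 7 listed surface genes, 1.43, against 1.13 for *Csf1r*. The mannose receptor gene *Mrc1* was at 3.41 and 8.52 FPKM at E11.5 and at 5.79 and 7.26 at E14.5, with log2 ratios of 1.3 and 0.32.

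*Cx3cr1*, the fractalkine receptor, and *P2ry12*, a purinergic receptor, are both strongly expressed in microglia. *Cx3cr1* was at 4.15 and 8.31 FPKM at E11.5 and at 3.53 and 4.61 at E14.5. *P2ry12* was at 2.60 and 4.07 FPKM at E11.5 and at 1.63 and 2.27 at E14.5. *P2ry12* had the smallest E11.5 log2 ratio of the listed surface genes, 0.63, just past 1.5-fold, and *Cx3cr1* had 0.98. Relative to *Csf1r*, *P2ry12* stood at 0.454 in control and 0.321 in CKO ganglia, and at 0.267 in wildtype and 0.313 in hypomorph ganglia.

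*Cd14*, a receptor for bacterial lipopolysaccharide, was at 0.496 and 1.33 FPKM at E11.5 and at 0.604 and 1.13 at E14.5. *Cd53*, a leukocyte tetraspanin, was at 1.38 and 3.25 FPKM at E11.5 and at 0.895 and 1.51 at E14.5. Both were past 1.5-fold in both comparisons, with log2 ratios of 1.26 and 0.81 for *Cd14* and 1.18 and 0.70 for *Cd53*. Their E14.5 wildtype values were under 1 FPKM, so they were listed at that stage only through the hypomorph value. The summed FPKM of the 7 listed surface genes was 2.22 times as high in CKO as in control ganglia and 1.31 times as high in hypomorph as in wildtype ganglia.

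**Figure D2:**
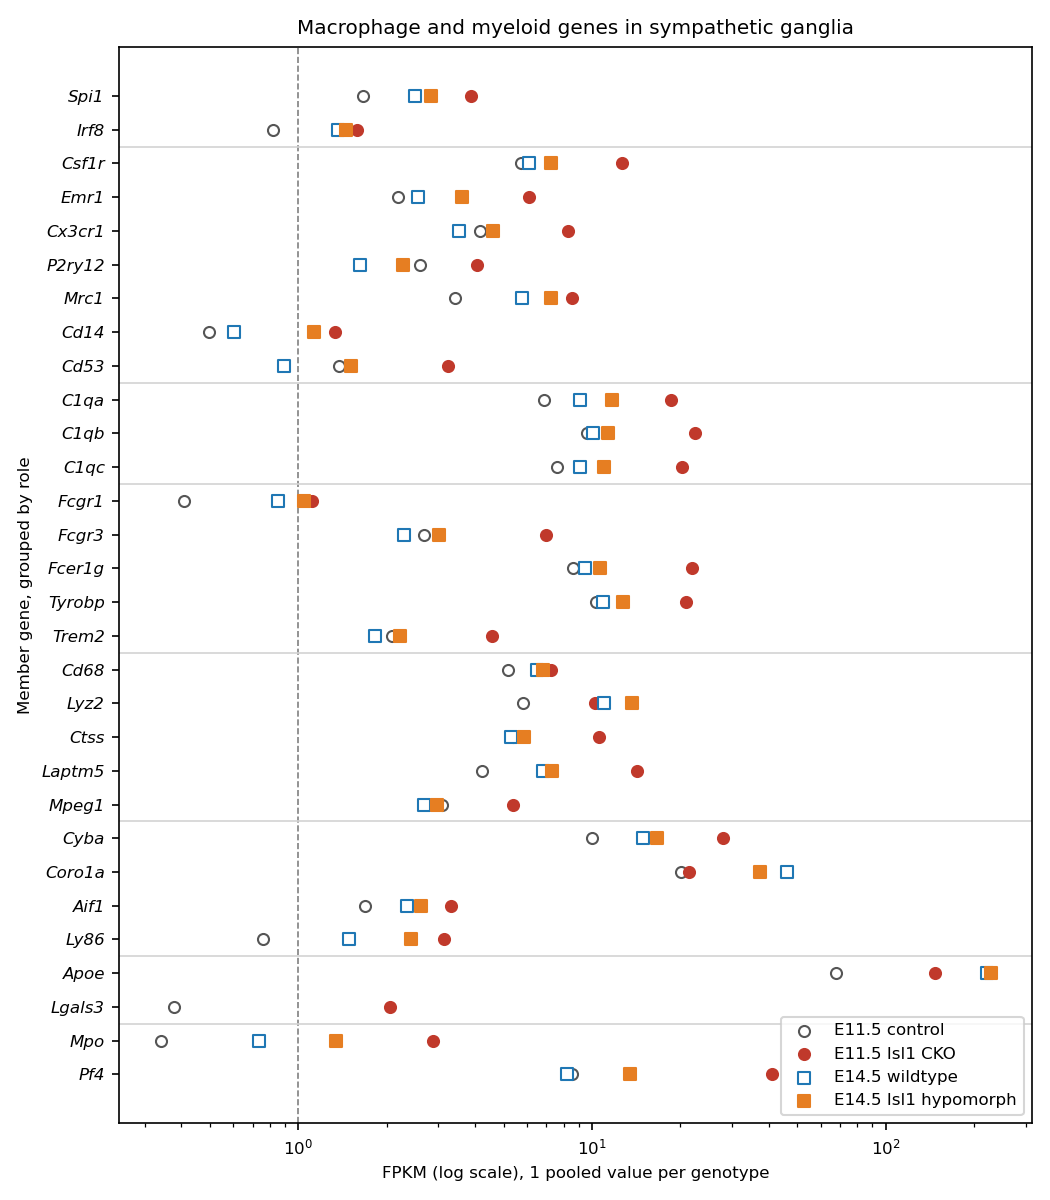
FPKM on a log scale (horizontal axis) of the 30 listed genes, grouped by role, in E11.5 control (open circles), E11.5 *Isl1* CKO (filled circles), E14.5 wildtype (open squares), and E14.5 *Isl1* hypomorph ganglia (filled squares), with 1 pooled value per genotype and the table limit of 1 FPKM dashed. The CKO value lies to the right of the control value in each of the 30 genes, and *Apoe* reached the highest values, 67.7 to 227 FPKM.

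C1q is the recognition molecule of the classical complement pathway, built from the chains encoded by *C1qa*, *C1qb*, and *C1qc*. These genes lie side by side on chromosome 4, on the minus strand, between 136436044 and 136454718 in mm9, a span of 18.7 kb. *C1qa* was at 6.85 FPKM in control against 18.6 in CKO ganglia, and at 9.10 in wildtype and 11.7 in hypomorph ganglia. *C1qb* was at 9.62 and 22.5 FPKM at E11.5 and at 10.1 and 11.4 at E14.5. *C1qc* was at 7.63 and 20.3 FPKM at E11.5 and at 9.11 and 11 at E14.5. The 3 chains thus stood at similar levels in each column and were higher together in CKO ganglia, with log2 ratios of 1.42 (*C1qa*), 1.22 (*C1qb*), and 1.40 (*C1qc*). At E14.5 the log2 ratios were 0.36, 0.17, and 0.27 in the same order, all under 1.5-fold. The ratio of *C1qb* to *C1qa* was 1.40 in control, 1.21 in CKO, 1.11 in wildtype, and 0.973 in hypomorph ganglia.

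The bases before the annotated starts of these genes were searched for letters of the kind bound by PU.1 and other ETS factors, GAGGAAG and AGGAAGT, on both strands. The 2 strings overlap in AGGAAG. RefSeq promoters (GRCm38.p6) were at hand for 27 of the 33 genes, and entries for *Spi1*, *Csf1r*, *Emr1*, *Cd14*, *C1qa*, and *Tyrobp* were missing. In the 250 bases before a start, GAGGAAG occurred in 9 of the 27 genes (33.3%) and in 12% of all 27025 gene symbols of the table. AGGAAGT also occurred in 9 of the 27 genes, against 8.80% of all symbols, and the joined string GAGGAAGT in 3 (*C1qc*, *Mpo*, and *Pf4*), against 2.79%. Either of the 2 shorter strings was found in 13 of the 27 genes and in 17.2% of all symbols. These are matches of letters and not shown to be bound sites, and a link to the expression ratios was not tested. The 13 genes include *Itgam* and *Ptprc*, which had no expression value. Neither string was found before *Lgals3* and *Ly86*, with E11.5 log2 ratios of 2.17 and 1.91. The 250 bases before the starts of *C1qb* (chr4:136886201-136886450, minus strand) and *C1qc* (chr4:136892915-136893164, minus strand) are shown 5′ to 3′ because these neighbours were higher together in CKO ganglia, with the matches in capitals, here on the opposite strand.
C1qb: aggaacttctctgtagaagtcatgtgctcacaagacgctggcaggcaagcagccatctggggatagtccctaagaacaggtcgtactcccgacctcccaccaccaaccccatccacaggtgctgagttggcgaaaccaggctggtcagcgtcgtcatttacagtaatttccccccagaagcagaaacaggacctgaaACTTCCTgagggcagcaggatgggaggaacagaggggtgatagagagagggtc
C1qc: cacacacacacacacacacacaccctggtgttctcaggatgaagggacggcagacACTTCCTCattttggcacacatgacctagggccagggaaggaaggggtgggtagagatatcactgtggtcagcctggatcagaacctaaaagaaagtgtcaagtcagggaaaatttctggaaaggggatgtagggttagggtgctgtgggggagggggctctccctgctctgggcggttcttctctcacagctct
The *C1qb* match AGGAAGT begins 53 bases before the start. In *C1qc* the strings overlap, and the first matched base lies 195 bases before the start.

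Fc receptors bind antibody, and together with TREM2 they signal through the small ITAM adaptors encoded by *Fcer1g* and *Tyrobp*. *Fcer1g* was at 8.61 FPKM in control against 22 in CKO ganglia, and at 9.46 in wildtype and 10.6 in hypomorph ganglia. *Tyrobp*, which encodes DAP12, was at 10.3 and 20.9 FPKM at E11.5 and at 10.9 and 12.7 at E14.5. The adaptors were more abundant than the receptors that use them in every column. *Fcgr3*, a low affinity IgG receptor, was at 2.67 and 6.95 FPKM at E11.5 and at 2.3 and 3.01 at E14.5. *Fcgr1*, the high affinity IgG receptor, was at 0.408 and 1.11 FPKM at E11.5 and at 0.851 and 1.05 at E14.5. *Trem2*, a receptor for lipids, was at 2.09 and 4.58 FPKM at E11.5 and at 1.82 and 2.21 at E14.5. All 5 genes were at least 2-fold higher in CKO ganglia, with log2 ratios from 1.01 (*Tyrobp*) to 1.35 (*Fcgr3*), and all were under 1.5-fold at E14.5, with log2 ratios from 0.17 (*Fcer1g*) to 0.37 (*Fcgr3*).

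The genes of the lysosome and phagosome were less uniform. *Laptm5*, a lysosomal membrane protein of blood cells, was at 4.21 FPKM in control against 14.2 in CKO ganglia, and at 6.81 in wildtype and 7.30 in hypomorph ganglia. Its log2 ratio at E11.5, 1.73, was the largest of this group, and its ratio at E14.5 was 0.10. *Cd68*, a lysosomal glycoprotein often used as a macrophage marker, was at 5.18 and 7.27 FPKM at E11.5 and at 6.52 and 6.81 at E14.5. *Cd68* had the smallest E11.5 log2 ratio of the group, 0.48, which is under 1.5-fold. *Lyz2*, a lysozyme gene that can share reads with its close copy *Lyz1*, was at 5.80 and 10.3 FPKM at E11.5 and at 11 and 13.7 at E14.5. *Ctss*, the protease cathepsin S, was at 5.38 and 10.6 FPKM at E11.5 and at 5.31 and 5.85 at E14.5. *Mpeg1*, which encodes the pore-forming protein perforin-2, was at 3.08 and 5.40 FPKM at E11.5 and at 2.67 and 2.97 at E14.5. These 3 genes were higher in CKO ganglia, with log2 ratios of 0.81 (*Lyz2*), 0.96 (*Ctss*), and 0.79 (*Mpeg1*), and none of them reached 1.5-fold at E14.5. The 250 bases before the start of *Laptm5* (chr4:130913066-130913315, plus strand, GRCm38.p6) are shown because it had the largest ratio of the group, with the GAGGAAG match, on the opposite strand, in capitals.
Laptm5: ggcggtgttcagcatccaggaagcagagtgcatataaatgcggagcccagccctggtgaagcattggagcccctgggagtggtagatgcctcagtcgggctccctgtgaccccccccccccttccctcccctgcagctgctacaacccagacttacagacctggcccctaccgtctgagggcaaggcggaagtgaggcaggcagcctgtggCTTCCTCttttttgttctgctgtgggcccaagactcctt
The match begins 39 bases before the start.

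Lysosomal genes that most cells express were set beside this group. Of all genes, 18.9% were at least 1.5-fold higher in CKO ganglia and 12.9% lower. At E14.5, 2.89% were higher and 2.12% lower. Of the 14 lysosomal genes, 9 were at least 1.5-fold higher in CKO ganglia and 0 lower (median log2 ratio 0.61). At E14.5, 0 of these 14 were past 1.5-fold. Those with the highest mean FPKM over the 4 columns were *Psap*, at 134 FPKM in control and 140 in CKO ganglia, *Lamp1*, at 120 and 170, *Ctsd*, at 82.6 and 172, and *Ctsl*, at 66.7 and 186.

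*Cyba*, the p22phox subunit shared by NADPH oxidases and expressed in many cell types, was at 10.0 FPKM in control against 27.9 in CKO ganglia, and at 14.9 in wildtype and 16.7 in hypomorph ganglia. Its log2 ratio at E11.5 was 1.46, while its phagocyte partner *Cybb* was below the limit of both tables. *Aif1*, which encodes the actin-binding protein IBA1, was at 1.68 and 3.32 FPKM at E11.5 and at 2.34 and 2.62 at E14.5, with log2 ratios of 0.94 and 0.16. *Ly86*, the MD-1 partner of a toll-like receptor homologue, was at 0.761 and 3.14 FPKM at E11.5 and at 1.48 and 2.41 at E14.5. *Ly86* was past 1.5-fold at both stages, with log2 ratios of 1.91 and 0.67. *Coro1a*, an actin regulator of leukocytes that neurons also express, was at 20.0 and 21.5 FPKM at E11.5 and at 46.2 and 37.3 at E14.5. *Coro1a* was under 1.5-fold in both comparisons, with log2 ratios of 0.10 and -0.31, and rescaling without erythroid genes turned the first of these to -0.14.

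*Apoe*, an apolipoprotein that carries lipids and is made by macrophages and glia (chromosome 7, from 20281458 to 20284515 in mm9), was by far the most abundant of these genes, at 67.7 FPKM in control against 147 in CKO ganglia and at 222 in wildtype and 227 in hypomorph ganglia. Its log2 ratio was 1.11 at E11.5 and 0.04 at E14.5. *Apoe* made up much of the summed FPKM of the group, so sums are also given without *Apoe* and the other 4 genes that are broadly expressed or belong to other blood cells (*Cyba*, *Lgals3*, *Mpo*, and *Pf4*). The sum was 204 FPKM in control and 463 in CKO ganglia, 2.27 times as high, and 117 and 242 without these 5 genes, 2.07 times as high. At E14.5 it was 406 in wildtype and 433 in hypomorph ganglia, 1.07 times as high, and 161 and 175 without them, 1.09 times as high. These smaller sums still hold *Coro1a*, which neurons also express, as their largest E14.5 term (46.2 and 37.3 FPKM). It was the only listed gene with a lower value in hypomorph than in wildtype ganglia. *Lgals3*, the lectin galectin-3, was at 0.379 FPKM in control against 2.06 in CKO ganglia, and its log2 ratio was 2.17.

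The remaining genes were *Mpo* and *Pf4*, which are known from granulocytes and platelets. *Mpo*, the myeloperoxidase of granulocyte precursors, was at 0.341 FPKM in control against 2.88 in CKO ganglia, and at 0.733 in wildtype and 1.35 in hypomorph ganglia. *Pf4*, a chemokine of megakaryocytes and platelets, was at 8.52 and 41.0 FPKM at E11.5 and at 8.25 and 13.4 at E14.5. Their log2 ratios were 2.76 and 0.80 for *Mpo* and 2.25 and 0.70 for *Pf4*. *Mpo* was the gene with the largest E11.5 ratio of the 30, and *Pf4* the one with the largest among the 24 at 1 FPKM or more in both genotypes. The 250 bases before the start of *Pf4* (chr5:90772185-90772434, plus strand, GRCm38.p6) are shown because it holds both overlapping strings close to the start, on the opposite strand and in capitals.
Pf4: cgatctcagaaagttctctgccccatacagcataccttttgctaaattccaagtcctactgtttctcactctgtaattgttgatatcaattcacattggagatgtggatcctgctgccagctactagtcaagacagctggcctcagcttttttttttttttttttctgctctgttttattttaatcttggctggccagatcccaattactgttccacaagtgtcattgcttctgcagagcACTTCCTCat
The matched bases begin 10 bases before the start.

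*Pf4* did not keep its proportion to the macrophage receptors. The ratio of *Pf4* to *Csf1r* was 1.49 in control and 3.24 in CKO ganglia, and 1.35 in wildtype and 1.85 in hypomorph ganglia. The ratio of *Pf4* to *Itga2b*, the platelet integrin, was 7.26 in control, 5.75 in CKO, 6.09 in wildtype, and 5.79 in hypomorph ganglia. Of 11 listed genes of a megakaryocyte and platelet list of 16, *Pf4* among them, 10 were at least 1.5-fold higher in CKO ganglia (median log2 ratio 2.25), and *Gp1bb* was not. With 1 FPKM or more in both genotypes, 5 of 6 were higher, where 15.5% of all such genes were. Of every gene listed at E11.5, 18.9% were higher. *Nfe2*, a transcription factor of megakaryocytes and erythroid cells, was at 2.80 FPKM in control against 29.8 in CKO ganglia, and *Ppbp*, a platelet chemokine, at 3.13 and 16.3. The summed FPKM of that list was 27.7 in control and 124 in CKO ganglia, and 39.7 in wildtype and 42.4 in hypomorph ganglia. *Gp1bb* was the largest term of the E14.5 sums, at 22.2 FPKM in wildtype and 15.9 in hypomorph ganglia. At E14.5, 4 of 7 listed genes were higher in hypomorph ganglia (median log2 ratio 0.70), where 2.89% of all genes were. With 1 FPKM or more in both genotypes, 3 of 6 were higher, where 1.87% of all such genes were. The platelet genes were therefore higher in CKO ganglia by more than the macrophage receptors, and their part in the value of *Pf4* was not tested. Of 7 listed genes of a neutrophil granule list of 13, *Mpo* among them, 6 were higher in CKO ganglia (median log2 ratio 0.92). With 1 FPKM or more in both genotypes, 3 of 4 were (median 0.81). The matching shares of all genes were again 18.9% and 15.5%. The granule protease *Prtn3* was at 2.27 FPKM in control and 3.87 in CKO, and at 5.26 in wildtype and 5.63 in hypomorph ganglia, while the proteases *Elane* and *Ctsg* were below the limit of both tables.

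A longer list of 74 other macrophage genes, for receptors, transcription factors, and enzymes beyond the 33, was counted in the same way. Of the 52 listed at E11.5, 43 were higher in CKO ganglia, and 1, *Csf2ra*, was lower, with a median log2 ratio of 1.01. Of all genes, 18.9% were higher and 12.9% lower. With 1 FPKM or more in both genotypes, 27 of 35 genes of the list were higher, where 15.5% of all such genes were. The median of the 35 was 0.96. At E14.5, 1 of 39 listed genes, *Cd36*, was higher and 0 were lower, with a median log2 ratio of 0.27. The count of higher genes was near the share of all genes, 2.89%, and 2.12% of all genes were lower. Among the genes of the list with the highest mean FPKM over the 4 columns were *Olfml3*, at 30.3 FPKM in control and 61.4 in CKO ganglia, *Ifi30*, at 16.4 and 32.9, and *Axl*, at 12.2 and 23.8. Genes best known from microglia were divided, with *Tmem119* at 15.0 FPKM in control and 25.2 in CKO and *Fcrls* at 2.65 and 8.17, while *Siglech* and *Sall1* were below the limit of both tables. Genes of other resident macrophages were divided as well, with *Lyve1* at 2.50 and 5.79 FPKM and *F13a1* at 2.75 and 8.47, while *Timd4* and *Cd163* were below the limit of both tables, as was *Ccr2*, the receptor of inflammatory monocytes. In control ganglia *Olfml3*, *Ifi30*, *Axl*, and *Tmem119* all stood above *Csf1r* (5.73 FPKM). Which cells held the RNA of these genes was not tested.

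Genes of macrophage ligands and signals were mixed. *Csf1*, the ligand of *Csf1r*, was at 2.73 FPKM in control against 2.50 in CKO ganglia, and at 4.42 in wildtype and 5.0 in hypomorph ganglia. *Il34*, the other ligand of *Csf1r*, and *Cx3cl1*, the ligand of *Cx3cr1*, were below the limit of both tables. *Csf1* therefore stayed under 1.5-fold in both comparisons, with an E11.5 log2 ratio of -0.12. *Cxcl12*, a chemokine of mesenchymal cells, was at 90.6 and 126 FPKM at E11.5 and at 69.1 and 111 at E14.5, with log2 ratios of 0.47 and 0.68. *Mfge8*, a bridge between dying cells and phagocytes, was at 18.3 and 37.7 FPKM at E11.5 and at 13.9 and 16.5 at E14.5. Of 13 listed genes of a list of 17 macrophage ligands and signals, 9 were higher in CKO ganglia, where 18.9% of all genes were. With 1 FPKM or more in both genotypes, 6 of 10 were (median log2 ratio 0.67), where 15.5% of all such genes were. At E14.5, 2 of 11 genes of this list were higher in hypomorph ganglia, where 2.89% of all genes were. The 2 were *Cxcl12* and *Ccl12*, the latter from 0.653 FPKM in wildtype ganglia.

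Markers of other cells also differed between control and CKO ganglia. Of all genes, 18.9% were at least 1.5-fold higher in CKO ganglia and 12.9% lower. Of those with 1 FPKM or more in both genotypes, 15.5% were higher. Of 16 listed erythroid genes, 15 were at least 1.5-fold higher in CKO ganglia (median log2 ratio 3.53), and 13 of 13 with 1 FPKM or more in both genotypes. The embryonic globin *Hba-x* was at 2572 FPKM in control and 53627 in CKO, and *Hbb-y*, an embryonic globin at 7552 FPKM in control ganglia, was listed at 0 in CKO ganglia. The summed FPKM of the erythroid list was 10896 in control and 69175 in CKO ganglia, 6.35 times as high, and 5647 in wildtype and 6867 in hypomorph ganglia. The erythroid ratios were thus larger than those of the macrophage genes, and near-identical globin genes can share reads, so the split between single globins is uncertain. All 17 endothelial genes had a log2 ratio above 0 at E11.5, but 4 (*Flt1*, *Tek*, *Erg*, and *Sox17*) were past 1.5-fold, with a median of 0.48. The summed endothelial FPKM was 115 in control and 154 in CKO ganglia, 1.34 times as high. As a share of the FPKM of all genes it was nearly the same, 0.0242% in control and 0.0249% in CKO ganglia. At E14.5 the endothelial sum was 159 in wildtype and 218 in hypomorph ganglia, 1.37 times as high. Its shares were 0.0355% in wildtype and 0.0494% in hypomorph ganglia. Neural crest and glial genes were mostly higher in CKO ganglia (10 of 12 higher, *Gfra3* lower, sum 1.93 times as high). Mesenchymal genes were also mostly higher (7 of 12 higher, sum 1.70 times as high), and 5 of 14 sympathetic neuron genes were lower (sum 0.780 times). As shares of the FPKM of all genes, neural crest and glial genes took 0.0834% in control and 0.124% in CKO ganglia. Mesenchymal genes took 0.166% and 0.217%, and sympathetic neuron genes 0.568% and 0.342%. At E14.5, log2 ratios were above 0 for 17 of 17 endothelial genes (median 0.46), 17 of 18 erythroid (0.48), and 12 of 12 mesenchymal genes (0.25). They were above 0 for 10 of 12 neural crest and glial genes (0.12) and 7 of 14 sympathetic neuron genes (-0.02). Of all genes, 50.7% were above 0. Of 10 lymphoid genes, 8 were below the limit of both tables, *Cd3e* of T cells among them. The T cell kinase gene *Lck* was at 2.17 FPKM in both E11.5 columns, at 1.74 in wildtype, and at 1.95 in hypomorph ganglia, and the B cell gene *Cd79b* was listed at E11.5 only, at 0.484 FPKM in control and 1.03 in CKO. The part of these other cells in the macrophage values was not tested.

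**Figure D3:**
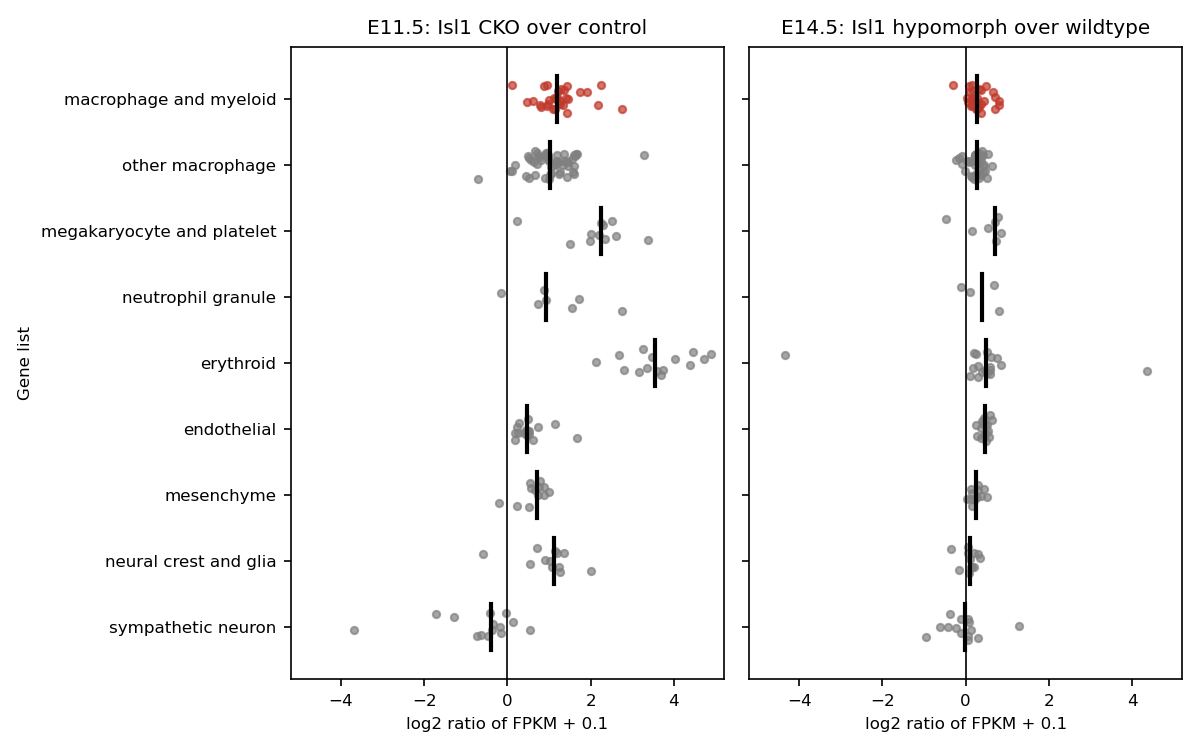
Log2 ratio of FPKM + 0.1 of single genes (points) in 9 gene lists (vertical axis), in *Isl1* CKO over control ganglia at E11.5 (left) and in *Isl1* hypomorph over wildtype ganglia at E14.5 (right), with the median of each list as a black bar. *Pf4* and *Mpo* stand in 2 lists each, and *Hbb-y*, listed at 0 in CKO ganglia, is outside the axis. At E11.5 the medians are 1.2 for the macrophage and myeloid genes, 2.25 for megakaryocyte and platelet, 3.53 for erythroid, 0.48 for endothelial, and -0.39 for sympathetic neuron genes.

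The levels in E11.5 control and E14.5 wildtype ganglia were then set side by side. The tables were normalized separately, and the control embryos carried *Wnt1-Cre* and the reporter while the wildtype embryos did not, so stage, genotype, dissection, and table cannot be told apart. Both columns also served as the reference of the mutant comparisons above. Of the 29 genes listed at both stages, 9 were at least 1.5-fold higher in E14.5 wildtype and 1 lower, where 29.7% of the 12727 genes listed at both stages were higher and 12.7% lower. The median log2 ratio was 0.25 over the macrophage genes and 0.24 over all genes. Among the 23 genes with 1 FPKM or more in both columns, 5 were higher, where 28.6% of all such genes were. The median and the share higher (31.0% of the 29) were thus close to those of all genes, and the share lower was smaller. Among the 23, the share higher was 21.7%, also smaller. Over all genes past 1.5-fold, 70.0% were higher at E14.5, and 49.7% after centring on the median of all genes. Under that centring 6 of the 29 macrophage genes were higher and 2 lower, where 19.2% of all genes were higher and 19.5% lower.

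The single genes were spread around that median. *Apoe* had the largest stage ratio, 1.71, and *Coro1a* the next, 1.2. *Lyz2* (0.91), *Mrc1* (0.75), and *Laptm5* (0.68) were also higher in E14.5 wildtype ganglia, as were *Mpo*, *Fcgr1*, *Ly86*, and *Irf8*, which were all under 1 FPKM in E11.5 control ganglia. *P2ry12* was the gene that was lower, with a log2 ratio of -0.64, followed by *Cd53* at -0.57 and *Cx3cr1* at -0.23. *Csf1r* (0.09), *Tyrobp* (0.07), *C1qb* (0.07), *Fcer1g* (0.13), and *Emr1* (0.21) were near 0, and each of these 5 turned negative after centring. The ratio of *Mrc1* to *Emr1* was 1.56 in E11.5 control and 2.27 in E14.5 wildtype ganglia, and that of *Lyz2* to *Csf1r* was 1.01 and 1.80. These proportions therefore differed between the stages while the receptor *Csf1r* stood at a similar FPKM.

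**Figure D4:**
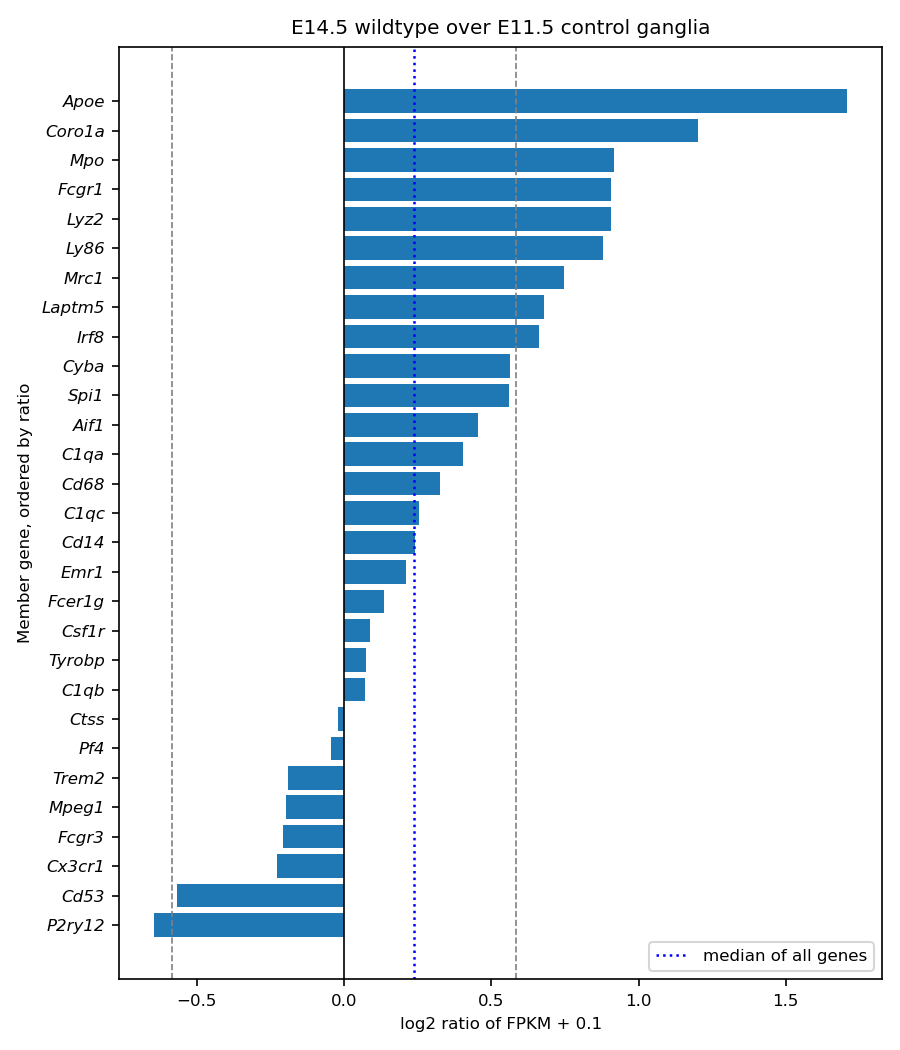
Log2 ratio of FPKM + 0.1 in E14.5 wildtype over E11.5 control ganglia (bars, horizontal axis) for the 29 genes listed at both stages, ordered by ratio, from 1 pooled value per column and without error bars. Dashed lines mark 1.5-fold and the dotted line is the median of all genes, 0.24. The bars run from 1.71 (*Apoe*) to -0.64 (*P2ry12*).

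Set against all genes of their column, most of these genes were expressed at low to middle levels. *Apoe* stood at the 91.1 percentile of FPKM in E11.5 control and at the 98.2 percentile in E14.5 wildtype ganglia, *Tyrobp* at the 47.4 and 44.3 percentiles, and *Csf1r* at the 32.0 and 29.0 percentiles. *Spi1* stood at the 11.4 and 13.3 percentiles. The 30 listed genes summed to 0.0428% of the FPKM of the control column and 0.0749% of the CKO column at E11.5, and the 29 at E14.5 to 0.0905% in wildtype and 0.0983% in hypomorph ganglia. Without *Apoe*, *Cyba*, *Lgals3*, *Mpo*, and *Pf4*, these shares were 0.0245% and 0.0392% at E11.5 and 0.0358% and 0.0396% at E14.5.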

How the data were processed

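Gene expression had been measured by RNA-seq of polyA RNA (SMARTer cDNA, paired-end Illumina reads). The authors mapped reads to mm9 with TopHat, and the deposited FPKM are cuffdiff values, 1 per gene and genotype with the 2 libraries combined. The submitters' processing notes name Bowtie, TopHat 1.3.1, Cuffdiff 1.3.0, and dm3, a fly build, which differs from the methods. Gene symbols and values were taken as deposited, and mouse symbols fill both tables. The deposited log2 fold changes and p-values are the authors' own comparison and were not used. Depth is unknown.

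The members and lists were chosen with earlier results of these data known. Every member was accounted for, and genes of other lists were named from the 4 with the highest mean FPKM, from those past the threshold where 5 or fewer were, and from defining markers. Not every gene so covered is named, and some items are not reported here. *Csf1* and the additional microglial, resident macrophage, and lymphoid genes were named after their values were seen, and the promoter strings were chosen after the expression values. Ratios used a pseudocount of 0.1 and a threshold of 1.5-fold. No test was possible with 1 value per genotype. The alternatives were pseudocounts of 1 and 0.01, centring, rescaling without erythroid genes, filters of 1 FPKM in both and 5 FPKM in either column, thresholds of 2 and 1.2, and the group without 5 genes. Promoters are the 250 bases before RefSeq starts, and gene positions are from the mm9 annotation. The steps were tested on simulated data, and Python 3.11.15, numpy 2.4.6, pandas 2.3.3, and matplotlib 3.10.9 were used.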

Additional observations from a re-analysis of the deposited data

How the results depend on the processing

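No paired analysis was possible because each column combines both libraries of a genotype, so the replicate block and leaving out 1 library were not run either. With pooled values, depth and the spread between libraries are unknown, and low genes are the least certain. The E11.5 and E14.5 medians of the macrophage genes kept their sign and moved by under 1.5-fold in every alternative run. At E11.5, 17 of 19 genes were higher with 5 FPKM or more in either column, where 15.1% of all such genes were. At E14.5, the 5 higher genes became 1 with a pseudocount of 1, 2 of 25 with 1 FPKM in both columns, 1 of 15 with 5 FPKM in either, 0 at 2-fold, 15 (and 1 lower) at 1.2-fold, and 3 without the 5 broadly expressed or other blood cell genes. Of all genes, in the same order, 1.62%, 1.87%, 2.17%, 0.977%, 12.2% (and 9.01% lower), and 2.89% were higher. For E14.5 wildtype over E11.5 control, the 9 higher and 1 lower genes became 4 and 0 with a pseudocount of 1, 5 and 0 with 5 FPKM in either column, 2 and 0 at 2-fold, and 14 and 2 at 1.2-fold. The shares of all genes, higher and lower in the same order, were 25.9% and 11.2%, 29.1% and 13.1%, 13.6% and 6.76%, and 48.3% and 22.8%. There were 5 higher with 1 FPKM in both columns, where 28.6% of all such genes were. With a pseudocount of 0.01, 2 were lower (12.9% of all genes), and after centring 2 were lower (19.5% of all genes). Apart from the filters and thresholds, which change the genes counted by construction, the cause was not tested. The other 56 counts and medians stayed within 1.5 times. Of the single gene values, 347 stayed within 1.5-fold and 5 did not, all at E11.5 with a pseudocount of 1 (*Cd14*, *Fcgr1*, *Lgals3*, *Ly86*, and *Mpo*).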
